A study of Sus scrofa with 8 samples.

Results

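VEGFA and VEGFB, a pair of vascular endothelial growth factor genes, were followed in infarcted and remote myocardium of the same pig hearts. They were found by their symbols in the annotation that the authors deposited with their comparison, which gave 2 genes and 3 of the 25470 transcript clusters on the array, where a transcript cluster is the set of probes summarised into a single value. VEGFA was measured by 2 clusters and VEGFB by 1. Infarcted tissue (4 samples) came from the anterior wall of the left ventricle at mid-ventricular level, and remote tissue (4 samples) from its posterior wall, in 4 young female Large White pigs. A balloon had closed the left anterior descending coronary artery of every pig for 90 min, and the tissue was taken 7 days later according to the design text, while the methods of the study give a later day. All pigs received amiodarone, acetylsalicylic acid and antibiotics, and pigs entered the study only with an infarct and a loss of ejection fraction seen by magnetic resonance. Remote tissue is therefore wall of an infarcted, treated heart, and no heart without an infarct was measured.

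VEGFA is the main growth factor of blood vessels, a secreted protein that makes endothelial cells divide, migrate and loosen their junctions through the receptor KDR. It also binds FLT1, a receptor with weak kinase activity that holds VEGFA away from KDR. Its gene is a classic target of the hypoxia-inducible factors, which prolyl hydroxylases of the EGLN family mark for destruction when oxygen is present. VEGFB binds FLT1 but not KDR, is abundant in heart muscle, and in rodents has been tied to fatty acid uptake through the endothelium and to the growth of coronary vessels.

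Every member was measured well within the range of the arrays. All 24 member signals, from 4.52 to 8.05 on the log2 scale, lay above the upper quartile of their own array, where array medians ran from 2.96 to 3.22. Both arrays of pig 4 stood apart, where the SD of the signals over all clusters was 1.46 in infarcted and 1.50 in remote tissue. It was 1.68 to 1.84 for pigs 1 to 3. The remote samples had high signals of the cardiac muscle genes MYH7 (11.9 ± 0.44) and MYL2 (12.4 ± 0.47; SD, n = 4 each). In the infarcted samples these were lower on average but still high, at 10.35 ± 0.996 and 10.855 ± 1.105 (SD, n = 4 each). Of the 6 named cardiomyocyte markers, MYH7 and MYL2 differed least between the regions. The infarcted minus remote log2 difference was −1.545 for MYH7, −1.53 for MYL2 and −3.43 for MYBPC3, the largest. All samples were of whole tissue, in which fewer cells of a type and less RNA per cell cannot be told apart.

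Both genes were lower in infarcted than in remote tissue, in all 4 pigs and by all 3 clusters. The first VEGFA cluster (15310081), annotated with VEGFA alone, had log2 signals of 5.74, 5.04, 5.20 and 4.52 in infarcted tissue of pigs 1 to 4, against 6.62, 6.83, 7.27 and 8.05 in remote tissue. The regions did not overlap, and pig 4 had both the lowest infarcted and the highest remote signal. Means were 5.13 ± 0.50 in infarcted and 7.19 ± 0.63 in remote tissue (SD, n = 4 each). In limma with the pig as a block the log2 fold change was −2.07, with a standard error of 0.37 and an adjusted p of 0.00865. This is 4.19-fold lower, with a 95% interval of 2.35 to 7.48. All changes below are likewise log2 differences, infarcted minus remote.

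The second VEGFA cluster (15310083), whose annotation also lists an unnamed locus, had signals of 5.78, 5.03, 5.61 and 5.85 in infarcted tissue of pigs 1 to 4 and 6.76, 6.39, 6.74 and 7.21 in remote tissue. Here pig 2 was the lowest and pig 4 the highest in both regions, and the regions again did not overlap. The means of 5.57 ± 0.37 in infarcted and 6.78 ± 0.34 in remote tissue (SD, n = 4 each) differed by −1.21 (standard error 0.19, limma adjusted p = 0.00541), which is 2.31-fold lower (95% interval 1.71 to 3.13).

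VEGFB (cluster 15261370) had signals of 5.95, 5.53, 5.39 and 5.71 in infarcted tissue of pigs 1 to 4, against 7.17, 6.96, 7.36 and 6.63 in remote tissue. The regions were 0.68 apart at their nearest samples, the infarcted one of pig 1 and the remote one of pig 4. Means were 5.65 ± 0.24 in infarcted and 7.03 ± 0.31 in remote tissue (SD, n = 4 each). The mean difference was −1.39 (standard error 0.23, limma adjusted p = 0.00578), which is 2.61-fold lower (95% interval 1.83 to 3.72).

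**Figure D1:**
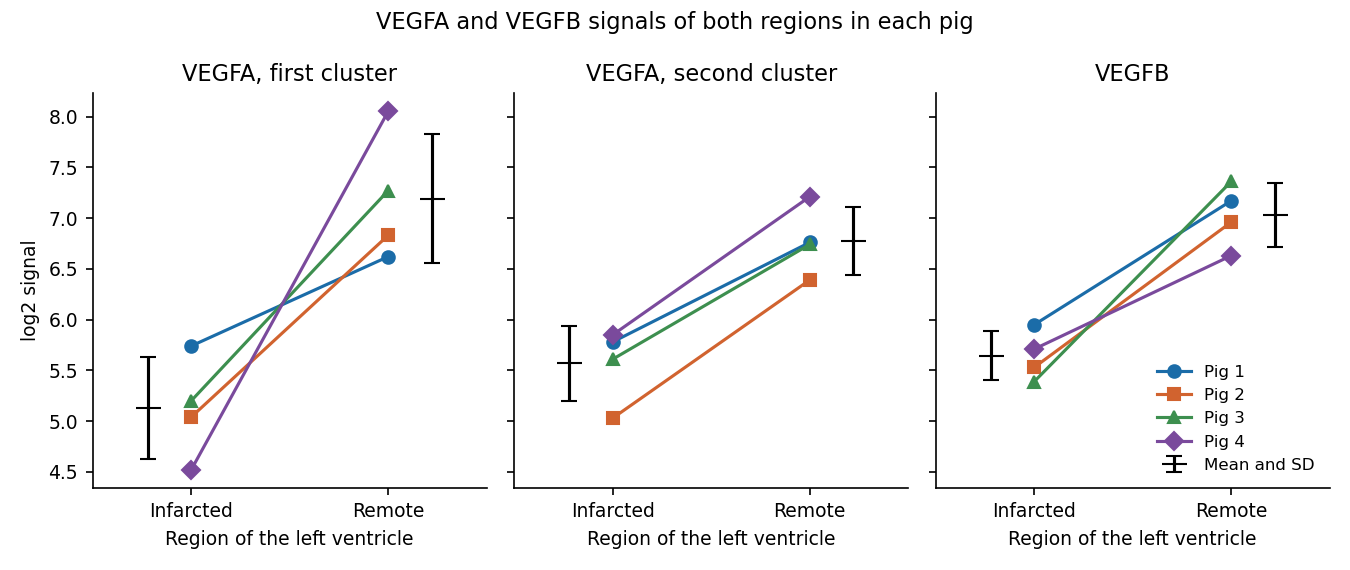
Log2 signal (vertical axis) of the 2 VEGFA clusters and of VEGFB in infarcted and remote left ventricle, with a line for each of the 4 pigs and the mean and SD of each region in black. Each line slopes up from infarcted to remote tissue, and the line of pig 4 is the steepest in the first VEGFA cluster (4.52 and 8.05) and the flattest for VEGFB (5.71 and 6.63).

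All 3 clusters passed the adjusted p in the lower direction, where 5.66% of all clusters did (1441 of 25470), while 4.57% passed in the higher direction (1163). This count is not independent evidence. The table that carries the gene names holds, by its own fold and p columns, no cluster that changed less than 2-fold in the same comparison or whose unadjusted p reached 0.05, so a VEGF gene outside those limits has no name there. Among the 1375 clusters with a single named gene, 50.1% passed in the lower and 36.6% in the higher direction, so that a call is the usual state of a named gene. The median log2 fold change over all clusters was 0.02. Leaving out any pig kept all 3 calls, with adjusted p up to 0.0471 for the first VEGFA cluster, 0.0417 for the second and 0.0382 for VEGFB. An exact sign-flip permutation test over the 4 pigs gave a 2-sided p of 0.125 for each of the 3 clusters, the smallest that 4 pairs allow.

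The pigs ranked differently by cluster. The infarcted-minus-remote difference of the first VEGFA cluster was −0.88 in pig 1, −1.79 in pig 2, −2.07 in pig 3 and −3.53 in pig 4, an SD of 1.10. That of the second VEGFA cluster was nearly even over the pigs, at −0.98, −1.36, −1.13 and −1.36 (SD 0.19). That of VEGFB was −1.22, −1.43, −1.97 and −0.92 (SD 0.44). Pig 4 thus showed the largest fall by the first VEGFA cluster and the smallest fall of VEGFB. Without pig 4 the log2 fold change was −1.58 for the first VEGFA cluster (adjusted p = 0.00430 in limma), −1.16 for the second (0.00515) and −1.54 for VEGFB (0.00211).

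Whether VEGFA and VEGFB changed by different amounts could not be settled with 4 pigs. The second VEGFA cluster was used first, as its mean signal was the higher, though barely so (6.171 against 6.159). Its change minus that of VEGFB was 0.18 ± 0.53 (SD, n = 4 pigs; −0.44 to 0.84; exact sign-flip permutation test, 2-sided, p = 0.625). This difference turned to −0.04 without pig 3. By the first cluster the same difference was −0.68 ± 1.32 (−2.61 to 0.34; exact permutation p = 0.375), and by the mean of both clusters it was −0.25 ± 0.88 (exact permutation p = 0.875). The VEGFA clusters themselves, first minus second, differed in change by −0.86 ± 0.97 (0.10, −0.43, −0.94 and −2.17 in pigs 1 to 4; exact permutation p = 0.25), and by −0.42 without pig 4. Which exons of VEGFA each cluster covers is not given in the sources used here.

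**Figure D2:**
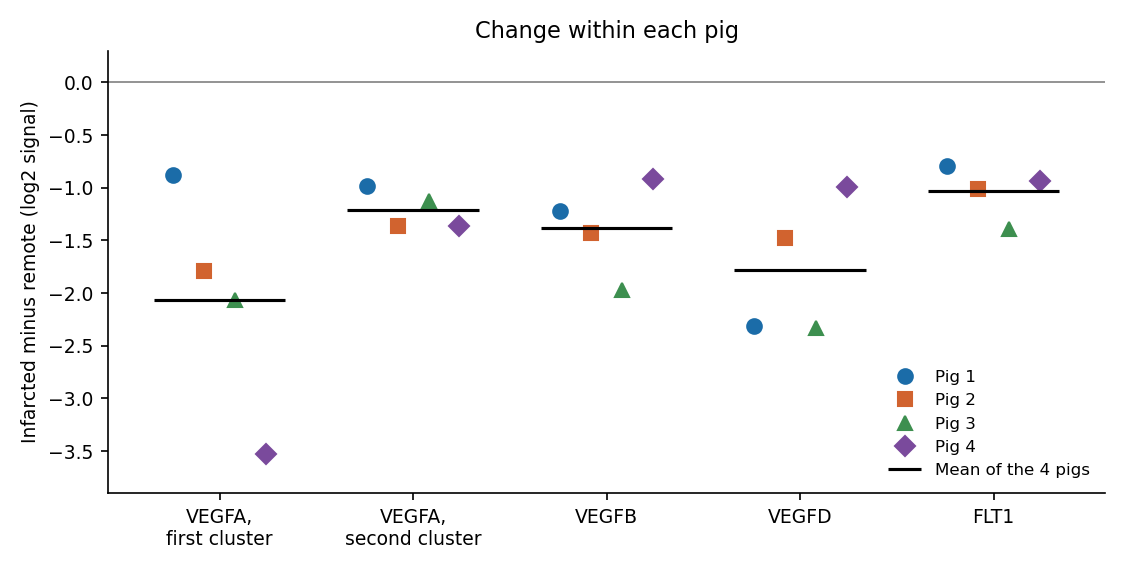
Infarcted minus remote log2 signal (vertical axis) in each of the 4 pigs (coloured symbols) for the 2 VEGFA clusters, VEGFB, VEGFD and FLT1, with the mean of the pigs as a black line. All symbols lie below 0, and pig 4 is lowest in the first VEGFA cluster (−3.53) and highest for VEGFB (−0.92) and VEGFD (−0.99).

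Of the 5 VEGF ligand genes, VEGFA, VEGFB and VEGFD carried a name, and all 3 fell. VEGFD, listed under its older symbol FIGF, is known as a growth factor of lymphatic vessels that signals through FLT4. It had signals of 3.34, 3.87, 2.88 and 4.02 in infarcted tissue of pigs 1 to 4, against 5.65, 5.35, 5.21 and 5.01 in remote tissue. The regions were 0.99 apart, and the infarcted signal of pig 3 lay below the median of its array, so the size of the fall is not exact. VEGFD changed by −1.78 (standard error 0.27, limma adjusted p = 0.00407), and the call was kept with any 1 pig left out (adjusted p up to 0.0371).

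Among 5 receptor genes only FLT1, the receptor that VEGFA and VEGFB share, had a name. Its signals were 3.91, 3.26, 3.40 and 3.81 in infarcted tissue of pigs 1 to 4, against 4.70, 4.27, 4.79 and 4.75 in remote tissue, and the nearest samples of the regions were 0.36 apart. The mean change of FLT1 was −1.03 (standard error 0.20, limma adjusted p = 0.0120), or 2.05-fold lower. The call of FLT1 was lost without pig 1 (adjusted p = 0.0553), pig 2 (0.0654) or pig 3 (0.0749). The other receptors KDR, FLT4, NRP1 and NRP2, the ligands VEGFC and PGF, and all 6 angiopoietin and Tie genes carried no name and were not analysed here.

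The 2 named genes on the oxygen sensing list fell beside VEGFA, while the 4 named genes on the list of hypoxia-induced genes rose. The grouping is that of the lists, which do not hold every gene of the response to hypoxia, and a name required a change. No common direction of hypoxia-induced genes is therefore read from the named ones. Of 8 hypoxia sensing genes 2 had a name, both prolyl hydroxylases, and both fell. EGLN1 changed by −1.69 (standard error 0.26, limma adjusted p = 0.00499) and EGLN3 by −1.32 (standard error 0.29, adjusted p = 0.0205). EGLN3 lost its call without pig 1 (0.123), pig 2 (0.109) or pig 3 (0.0764), and without the pig block (0.102). Of 19 genes known to be induced by hypoxia, 4 had a name, and all 4 rose: the lactate dehydrogenase LDHA by 2.09, the enolase ENO1 by 1.79, NDRG1 by 1.38 and PFKFB3, a regulator of glycolysis, by 1.35 on the log2 scale, with adjusted p between 0.00177 and 0.0191 in limma. VEGFA, itself induced by hypoxia in many cells, fell in the same samples. The calls of 3 of these genes were lost when 1 pig was left out. NDRG1 lost its call without pig 1 (0.102) or pig 3 (0.0783), PFKFB3 without pig 1 (0.0512) and ENO1 without pig 1 (0.100) or pig 3 (0.104), while LDHA (0.0663) and ENO1 (0.106) lost theirs without the pig block.

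Regulators and genes of fatty acid use fell together with VEGFA and VEGFB, except for ESRRA, which did not pass. Of 9 genes around the coactivator PGC-1, which is known to induce VEGFA in muscle of mice, 3 had a name. The nuclear receptor ESRRG changed by −2.71 (limma adjusted p = 0.000396) and PPARA, a receptor that drives fatty acid oxidation, by −1.55 (adjusted p = 0.00252). ESRRA, the partner of PGC-1 in that induction, measured −0.76 and did not pass (adjusted p = 0.153, and 0.0407 without pig 3). Infarcted signals of PPARA and ESRRA were at or below the array median in 3 of 4 pigs each. Of 8 genes of fatty acid uptake, the process tied to VEGFB in mice, 4 had a name and all 4 fell. The log2 fold change was −3.09 for the fatty acid binding protein FABP3, −2.88 for the lipoprotein lipase LPL, −1.90 for the transporter CD36 and −1.36 for the transport protein SLC27A1, with adjusted p up to 0.00446 in limma. FABP3 lost its call without the pig block (0.0572), and its infarcted signals were at or below the array median in 2 of 4 pigs. The clusters of PPARA, CD36 and SLC27A1 also list an unnamed locus.

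Genes that carry the signal inside the cell after receptor activation were split. Of 38 genes of VEGF receptor signalling 6 had a name, of which 3 rose and 2 fell. The kinase PRKCB rose by 2.04, the small GTPases NRAS by 1.41 and CDC42 by 1.25 on the log2 scale, with adjusted p up to 0.00672 in limma, and CDC42 lost its call without pig 1 (0.0546). The heat shock protein HSPB1, a target of this pathway that is also abundant in muscle, fell by 1.85 (adjusted p = 0.00252), and the kinase MAP2K2, whose cluster also lists an unnamed locus, fell by 0.98 (adjusted p = 0.0127). HSPB1 did not pass without the pig block (0.0581), nor did MAP2K2 (0.148), which also lost its call without pig 1 (0.0873) or pig 2 (0.0706). PLCG2 had a log2 fold change of 1.10 and did not pass (adjusted p = 0.0588, and 0.00325 without pig 4).

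Of 11 other growth factors of vessels 4 had a name, of which 1 fell, like VEGFA and VEGFB, 2 rose and 1 did not pass. The fibroblast growth factor FGF1 fell by 1.60 on the log2 scale (limma adjusted p = 0.00177), with infarcted signals at or below the array median in all 4 pigs. IGF1 rose by 2.43 (adjusted p = 0.00179) and FGF2 by 0.94 (adjusted p = 0.0263, lost without pig 1 at 0.135 or pig 2 at 0.154). HGF had a log2 fold change of 1.50 and did not pass (adjusted p = 0.0676). Without pig 4, where it differed by −0.47, its change was 2.16 (adjusted p = 0.000768). Of 13 inhibitors of angiogenesis and genes of sprouting tips, 2 had a name and both rose. Thrombospondin THBS1, an inhibitor of vessel growth that binds VEGFA, rose by 1.97 (adjusted p = 0.0258) and the matrix-associated protein CCN2, listed as CTGF, by 1.63 (adjusted p = 0.00340). The difference of THBS1 was 2.96, 1.73, 3.16 and 0.04 in pigs 1 to 4, and its change was 2.62 without pig 4. THBS1 lost its call without pig 1 (0.149), pig 2 (0.0804) or pig 3 (0.129).

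**Figure D3:**
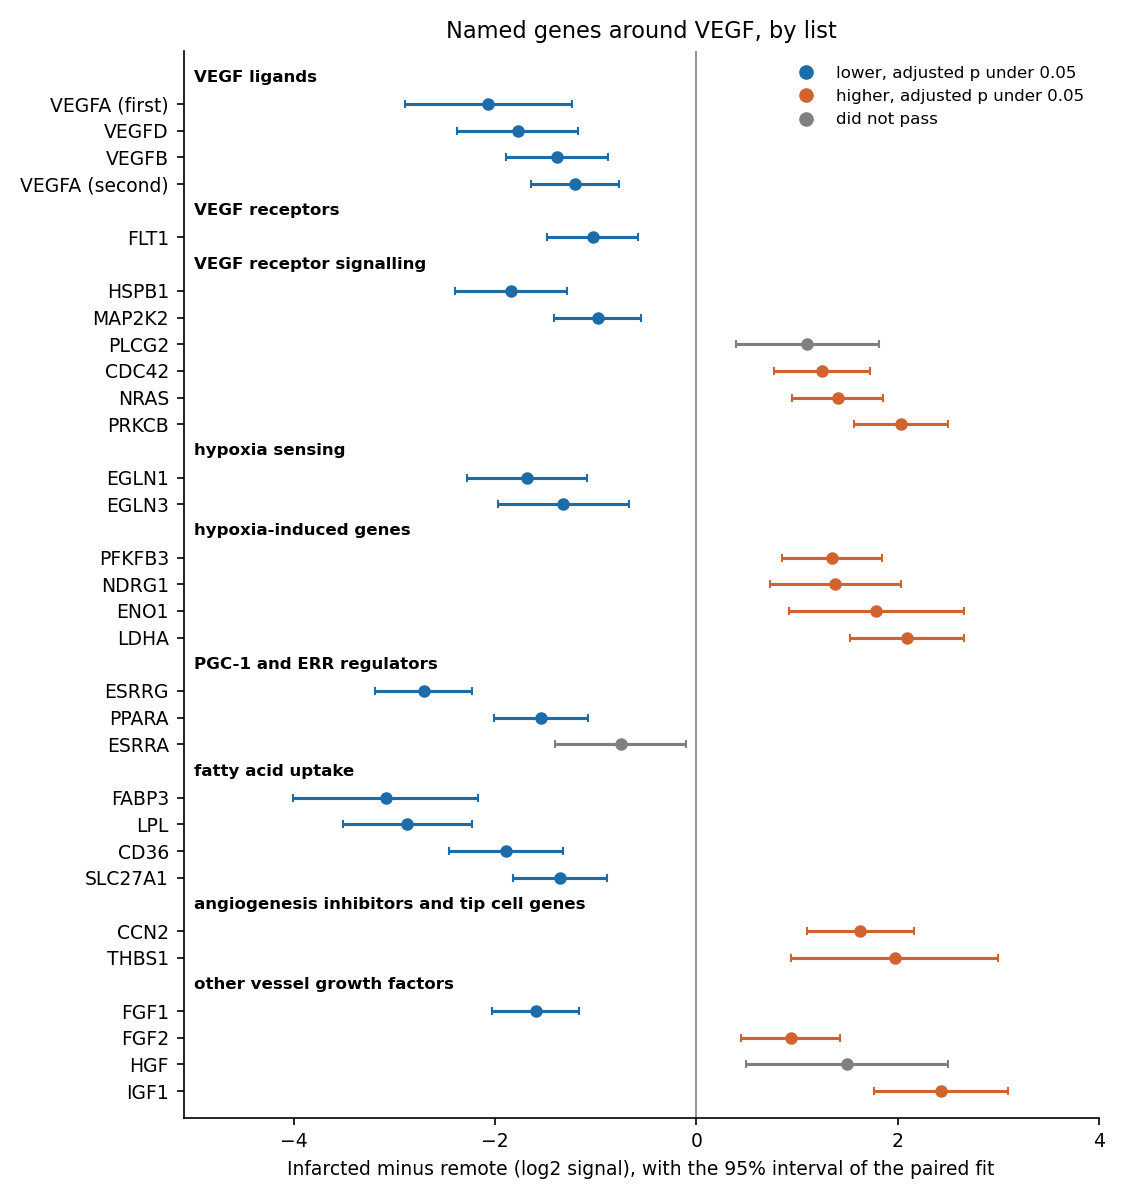
Infarcted minus remote log2 signal with its 95% interval from the paired limma fit (horizontal axis) for VEGFA by both clusters and for the other named genes of the lists, grouped by list. All ligands, FLT1, both EGLN genes and the genes of fatty acid uptake lie left of 0. The named genes on the list of hypoxia-induced genes, THBS1, CCN2 and IGF1 lie right of it.

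In all, 29 of the 122 genes on these 10 lists had a name, of which 15 fell, 11 rose and 3 did not pass, where 50.1% of all named clusters were lower and 36.6% higher (5.66% and 4.57% of all clusters). Since a name required a change in these samples, nothing is read from these counts or from those of the single lists.

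Markers of cell types also differed between the regions, some lower and others higher, and their part in the result was not tested. Of 10 cardiomyocyte markers 6 had a name, of which 5 fell and 1 (MYL2, adjusted p = 0.0601) did not pass and overlapped between the regions. Their median change was −2.66. The mean signal of these 6 was 6.42 to 9.30 over the infarcted samples and 10.2 to 10.7 over the remote ones. All 6 differed least in pig 4, by −1.96 (RYR2) to −0.09 (MYH7). In that pig the first VEGFA cluster fell most (−3.53) and VEGFB least (−0.92). All named fibroblast (5 of 8), macrophage (3 of 8) and smooth muscle or pericyte (2 of 7) markers rose, and of 2 named neutrophil markers (of 5) S100A8 rose. A name required a change in these samples, so nothing is read from the marker counts. Of all named clusters 50.1% were lower and 36.6% higher (5.66% and 4.57% of all clusters). The mean signal of the fibroblast markers was 7.76 to 9.07 over infarcted and 4.41 to 6.74 over remote samples, and that of the macrophage markers was 4.86 to 7.93 over infarcted and 3.02 to 3.42 over remote samples. The smooth muscle or pericyte markers averaged 6.03 to 7.60 over infarcted and 4.64 to 5.38 over remote samples, and the neutrophil markers 3.06 to 6.18 over infarcted and 2.46 to 2.76 over remote samples. None of 10 endothelial markers had a name, so the cells on which VEGFA acts were not followed here. The call of the cardiomyocyte gene MYH7 was lost without pig 1 (0.172), pig 2 (0.121) or pig 3 (0.149), that of MYL3 without pig 1 (0.0855) or pig 3 (0.0551), that of ACTN2 without pig 1 (0.0529), and that of the smooth muscle actin ACTA2 without pig 1 (0.0618) or pig 3 (0.0598), while MYL2 (0.00990) passed without pig 4. MYH7 (0.0717) and the fibroblast gene FAP (0.103) did not pass without the pig block.

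The genes whose signals followed VEGFB and VEGFA most closely over the 8 arrays differed between the members. Pearson's r was ranked over 1142 clusters with a single gene symbol, all of them selected for a change in this comparison, as a description, since the difference between regions enters every r and both arrays of a pig share an animal. Closest to VEGFB were MAF1, a repressor of RNA polymerase III (r = 0.989), the complex I subunit NDUFA3 (0.982), the calpain inhibitor CAST (0.981), the aspartate transaminase GOT1 (0.978) and the mitochondrial ribosomal protein MRPL10 (0.976). Closest to the second VEGFA cluster were the ATP-gated channel P2RX5 (0.964), FLT1 (0.963), the lipid synthesis enzyme GPAT4 (0.951), the adrenergic receptor ADRA1A (0.940) and the glycogen phosphatase EPM2A (0.932). Closest to the first VEGFA cluster were the cytokine receptor LIFR (0.959), UNC5CL (0.937), TMEM243 (0.935), TEN1 (0.932) and the coagulation factor F8 (0.931). No gene stood among the first 5 of more than 1 of these clusters.

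When each signal was taken as its deviation from the region mean, MAF1 (r = 0.911), IDH3G (0.901), DNAJA4 (0.845), NDUFA3 (0.830) and CTNNA1 (0.828) were closest to VEGFB, so that MAF1 and NDUFA3 were near it by both measures. GIMAP6 (0.914), FHL3 and P2RX5 (0.83 each), LAX1 (0.820) and FLT1 (0.812) were closest to the second VEGFA cluster, and CALD1 (0.932), ARHGEF2 (0.893), PTK2B (0.885), PRPF38B (0.873) and SRSF6 (0.868) to the first. P2RX5 and FLT1 were likewise near the second VEGFA cluster by both measures, which are not independent. For MAF1, NDUFA3 and P2RX5 no r was computed with a pig left out. Between the regions GIMAP6 and FHL3 rose, with log2 fold changes of 1.23 and 1.01, while VEGFA fell. The VEGFA clusters had r = 0.434 with each other over these deviations of 8 arrays. VEGFB had r = −0.244 with the first VEGFA cluster and −0.045 with the second, against 0.817 and 0.835 over the signals, which hold the difference between regions. Single pigs set some of these values. The r of FLT1 with the second VEGFA cluster was 0.374 without pig 2. With the first VEGFA cluster FLT1 had only r = 0.295, and from 0.138 to 0.726 with a pig left out. The r of VEGFB with the first VEGFA cluster was 0.791 without pig 4. That of VEGFB with the second VEGFA cluster ran from −0.524 without pig 2 to 0.575 without pig 4, so that no relation of VEGFB with VEGFA within a region is read from these 4 pigs. VEGFD had r = −0.679 with the first VEGFA cluster, and from −0.942 to −0.428 with a pig left out. With the second VEGFA cluster its r was −0.295, and from −0.567 to 0.023 with a pig left out. No relation of VEGFD with VEGFA is read from these values either.

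**Figure D4:**
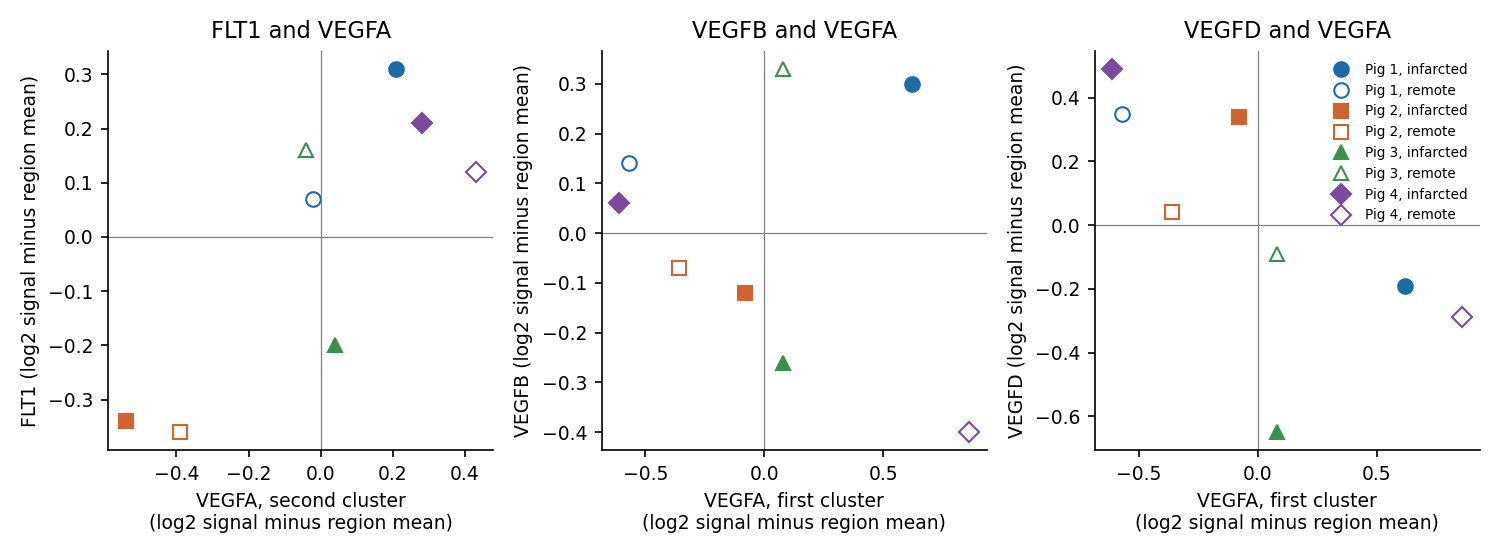
Deviations of log2 signals from the region mean on the 8 arrays, for FLT1 against the second VEGFA cluster, and for VEGFB and VEGFD against the first VEGFA cluster, with filled symbols for infarcted and open symbols for remote tissue and a colour for each pig. Both samples of pig 2 lie at the low end for FLT1 and VEGFA, and the remote sample of pig 4 lies far right and low in the VEGFB panel.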

How the data were processed

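RNA of 4 infarcted and 4 remote samples was hybridised to porcine GeneChip gene arrays. The log2 signals per transcript cluster and array were deposited as normalized by the authors with the Transcriptome Analysis Console, by a summarisation method not given in the sources used here. Their comparison table (2331 clusters) served to name clusters, of which 1375 tied to a single gene. Its fold changes and p-values were read only for the limits of that table given above. Its averages and enrichment sheets were not used. Loci of 112 clusters were renamed through RefSeq records of Sscrofa11.1. The array annotation uses an older build, so coordinates and sequences were not used here.

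Region was fitted with the pig as a block over all 25470 clusters (limma 3.58.1, R 4.3.3, Benjamini-Hochberg adjustment), after the script had been tested on simulated data. Fell and rose mean an adjusted p under 0.05. With 3 residual and 5.94 prior degrees of freedom, the number of arrays limits the precision (median standard error 0.223). The labels name the pig of each sample. Deviations from the region means had r = 0.113 to 0.441 between the samples of a pig, against −0.483 to 0.335 for samples of different pigs. These ranges overlap, so the pairing rests on the labels. Single differences had an exact sign-flip permutation test over pigs. A list gene with several clusters was represented by the one of highest mean signal. The genes named were the members by every cluster, all ligands, receptors and hypoxia sensing genes with a name, up to 3 called genes each way of other lists, and the 5 clusters most like each member. Further list genes and the markers were named after their values were seen. The members and lists were chosen with earlier results of these data known. Alternatives were a fit with no block, quantile normalization, centring on array medians, a filter that left out 33.3% of clusters by low mean signal, eBayes with trend and robust settings, array weights, means over clusters and leaving out each pig. The comparison of the VEGFA clusters, the use of other VEGFA clusters against VEGFB, the fits of VEGFD and the recounts of lists were added after seeing the data.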

Additional observations from a re-analysis of the deposited data

Results flagged for a closer look

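The 60 groups of 4 samples checked were those of the named pathway list genes, with VEGFA by both clusters. Markers of cell types were not checked. In 7 groups 1 sample lay far from the other 3, where chance flags about 1 in 20 independent groups. These groups share the same 8 arrays and are not independent. The 7 samples were all arrays of pig 4, the animal whose arrays had the narrowest spread of signals. They were the remote samples of PRKCB (3.83), HSPB1 (5.74), MAP2K2 (6.62), NRAS (5.60), FABP3 (4.11) and FGF1 (4.53) and the infarcted sample of CDC42 (8.68), all log2 signals. No group of VEGFA, VEGFB, VEGFD or FLT1 was among them.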

How the results depend on the processing

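VEGFA by both clusters, VEGFB and VEGFD kept their direction and an adjusted p under 0.05 under every alternative run, in all with log2 fold changes from −2.46 to −1.58 for the first VEGFA cluster, −1.28 to −1.09 for the second, −1.54 to −1.19 for VEGFB and −2.04 to −1.59 for VEGFD. The mean over both VEGFA clusters changed by −1.64. With no replicate block the adjusted p of limma was 0.00727, 0.0202, 0.00689 and 0.00530 for these, in the same order, and 0.0254 for FLT1. The count of clusters moved more. Without the replicate block 630 were higher and 872 lower, with array weights 2067 and 2290, and with a pig left out 388 to 1949 and 541 to 2166, against 1163 and 1441. The VEGFA minus VEGFB difference changed sign by the first VEGFA cluster (−0.683) and by the mean of both clusters (−0.252), and ran from −0.043 to 0.383 with a pig left out. Of the named list genes, 5 (without pig 1) to 13 (without pig 4) were higher with a pig left out, against 11. The cause of these shifts was not tested. Signals near an array's median give no exact fold change.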
